A study of Mus musculus with 8 samples.

Results

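The receptors and helper proteins with which the kidney proximal tubule recovers filtered protein were followed in RNA of mouse kidney cortex. The 6 genes Lrp2, Cubn, Amn, Dab2, Clcn5 and Ocrl were taken by symbol from a table of 21705 gene rows, and each had 1 row. RNA sequencing covered 4 libraries labelled Sav1-/- (genotype abbreviation KS) from mice given tamoxifen and 4 libraries labelled Sav1+/+ (abbreviation Ctrl) from mice given vehicle, all from kidney cortex on a mixed background strain. They are called Sav1-null and wild-type below. Sav1 encodes salvador, a scaffold protein of the Hippo kinase pathway. The comparison asks which cortex transcripts differ with loss of Sav1. The promoter or cell type driving the deletion, the exons removed, the age of the mice and whether each library came from its own animal were not stated in the labels. P-values therefore reflect only how far these libraries lie apart, which may be technical. Genotype and treatment differed together, and their effects cannot be told apart.

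Megalin, the product of Lrp2, is a giant receptor of the LDL receptor family in the apical membrane of proximal tubule cells. Cubilin, the product of Cubn, has no membrane-spanning segment and reaches the surface in complex with amnionless, the product of Amn. Together they bind albumin, vitamin-binding proteins, hormones and small enzymes from the filtrate. DAB2 links the receptor tails to clathrin, the chloride-proton exchanger CLC-5 (Clcn5) serves acidification of early endosomes, and the phosphatase OCRL (Ocrl) removes a phosphate from phosphoinositides on endosomes. Loss of Clcn5 or Ocrl function causes Dent disease in humans, and loss of Ocrl also causes Lowe syndrome. Loss of Cubn or Amn causes Imerslund-Gräsbeck syndrome, and loss of Lrp2 causes Donnai-Barrow syndrome.

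The sequence in front of the transcription start was available for all 6 genes, with a second start for Dab2 and for Clcn5, which gave 8 windows of 250 bases (RefSeq, GRCm38.p6). The deposited values rest on the older build mm9, so these windows describe the genes and were not used to place reads. They are shown for the gene with the largest fall as deposited (Lrp2), its partner receptor (Cubn) and the gene that did not fall (Ocrl). The Cubn window and the first Dab2 window are also shown because they held matches to TTCNNNGAA, a motif searched. The Lrp2 window lies at chr2:69586030-69586279 (minus strand), the Cubn window at chr2:13491877-13492126 (minus strand), the first Dab2 window at chr15:6299539-6299788 (plus strand) and the Ocrl window at chrX:47912206-47912455 (plus strand). Each reads 5′ to 3′ up to the base before the start, and capitals mark a motif match.
Lrp2: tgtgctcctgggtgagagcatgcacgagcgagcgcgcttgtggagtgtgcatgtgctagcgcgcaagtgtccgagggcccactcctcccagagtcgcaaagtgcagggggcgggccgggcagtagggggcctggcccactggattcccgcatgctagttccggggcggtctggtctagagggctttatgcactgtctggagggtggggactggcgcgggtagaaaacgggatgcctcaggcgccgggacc
Cubn: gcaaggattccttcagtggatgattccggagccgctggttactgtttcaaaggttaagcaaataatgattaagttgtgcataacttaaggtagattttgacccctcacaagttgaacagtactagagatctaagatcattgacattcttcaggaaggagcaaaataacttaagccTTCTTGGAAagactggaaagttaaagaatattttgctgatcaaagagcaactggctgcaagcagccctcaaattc
Dab2 first window: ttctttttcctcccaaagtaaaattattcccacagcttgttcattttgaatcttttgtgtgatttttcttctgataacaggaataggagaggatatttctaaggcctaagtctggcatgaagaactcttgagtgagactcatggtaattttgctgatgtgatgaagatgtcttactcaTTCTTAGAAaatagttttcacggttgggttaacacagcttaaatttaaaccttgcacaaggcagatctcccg
Ocrl: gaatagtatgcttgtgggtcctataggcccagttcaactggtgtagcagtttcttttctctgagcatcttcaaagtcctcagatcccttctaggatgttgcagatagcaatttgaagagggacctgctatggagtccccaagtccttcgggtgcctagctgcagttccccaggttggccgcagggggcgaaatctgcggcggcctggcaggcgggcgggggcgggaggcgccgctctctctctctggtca

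Motifs searched on both strands and given here were AGGTCA (a nuclear receptor half-site), GGAATG (a TEAD core), TTCNNNGAA (a STAT palindrome) and TATAAA (a core promoter box). Cubn held TTCTTGGAA 75 bases before its start and the first Dab2 window held TTCTTAGAA 72 bases before its start, both of the palindrome form that 7.02% of 32851 windows of the same length contain. Of the Clcn5 windows, the second held TATAAA 172 bases before its start (12.4% of all windows). The windows of Lrp2, Amn and Ocrl held none of these, and no window of the 6 genes held AGGTCA (14.0% of all windows) or GGAATG (12.6%). These matches are runs of letters, not measured sites. Base composition ranged widely, with 66.4% G and C in the Lrp2 window, 61.2% in that of Amn, 57.6% in that of Ocrl and 39.6% in that of Cubn. The median of all windows was 52.4%, and the pair of Dab2 windows lay on either side of it at 36.8% and 60.0%.

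Values in the deposited table are normalized expression levels, scaled so that, among genes with any reads, the upper quartile of a library is close to 1000. They are not divided by gene length. One read was worth 0.781 to 0.984 in the Sav1-null libraries and 0.838 to 1.03 in the wild-type libraries, which corresponds to about 15700000 to 20900000 reads per Sav1-null library and 20500000 to 25000000 per wild-type library. The least covered member in any library still rested on 372 reads. Counting error was smaller than the spread between libraries for 5 of the 6 members. For Ocrl it was 4.32% in the library with fewest reads, against a coefficient of variation of 2.03% among Sav1-null and 4.66% among wild-type libraries. Of 13677 genes tested, 69.1% were called at an adjusted p under 0.05 (limma, Benjamini-Hochberg over all tested genes), 25.2% lower and 43.9% higher in Sav1-null cortex. A single call is therefore common, and the values below are read by their size, beside a median log2 fold change of 0.23 over all tested genes. Sav1 averaged 898 ± 127 in Sav1-null and 1350 ± 345 in wild-type libraries (SD, n = 4 each), with wild-type replicate 3 (959) inside the Sav1-null range, and the whole-gene value does not measure how much intact transcript was left. Xist read 9280 to 16095 in Sav1-null libraries and at most 0.989 in wild-type libraries, and the Y-linked Eif2s3y, Ddx3y, Uty and Kdm5d were at 0 in each Sav1-null library, against 326 to 1284 in wild-type libraries. Genotype, treatment and sex-chromosome transcripts thus separate the same libraries and cannot be told apart. The names of the deposited columns also differ in form between the groups, and what this reflects was not tested. The injury marker Havcr1 read 6275 to 16583 in the Sav1-null libraries, and it was uneven in wild-type cortex, with 1099 and 665 in replicates 2 and 3 against 23.6 and 15.5 in replicates 1 and 4.

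Among the 6 genes, 5 were lower and Ocrl was slightly higher in Sav1-null cortex, and for none did the 2 groups overlap. Groups that do not overlap were found for 24.1% of all tested genes in the lower direction and 41.0% in the higher. As deposited, Lrp2 fell most, to 27.5% of its wild-type mean. Amn fell to 34.6%, Dab2 to 44.6%, Clcn5 to 52.9% and Cubn to 54.8%. Ocrl stood at 116% of its wild-type mean. By two-sided exact permutation each gene had p = 0.0286, the smallest p that 4 libraries against 4 allow.

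Of the receptors, Lrp2 had values of 12489, 8128, 14590 and 5251 in the Sav1-null libraries, against 39645, 37789, 34301 and 35373 in the wild-type libraries. The groups were far apart, while the Sav1-null libraries differed among themselves by 2.78-fold. The group means were 10114 ± 4214 in Sav1-null and 36777 ± 2405 in wild-type cortex, and the log2 fold change was -1.97 ± 0.28 (SE; limma adjusted p = 0.000209). Only 3.22% of tested genes had a lower log2 fold change. Cubn had values of 4460, 3169, 5294 and 2106 in the Sav1-null libraries, against 7640, 6583, 6801 and 6388 in the wild-type libraries. The same Sav1-null libraries were high and low for both receptors, with replicate 3 highest and replicate 4 lowest. For Cubn the means were 3757 ± 1406 in Sav1-null and 6853 ± 551 in wild-type cortex, with a log2 fold change of -0.95 ± 0.25 (limma adjusted p = 0.00718).

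Amn, whose product carries cubilin to the surface, had values of 799, 615, 590 and 673 in the Sav1-null libraries, against 1618, 1363, 2452 and 2314 in the wild-type libraries. It was the member with the widest spread for its level among wild-type libraries, where replicates 3 and 4 were high, and it was even among Sav1-null libraries. Its log2 fold change was -1.50 ± 0.19 (limma adjusted p = 9.81e-05), with means of 669 ± 93.1 in Sav1-null and 1937 ± 529 in wild-type cortex. Dab2, the adaptor, had values of 6831, 7057, 7752 and 4069 in the Sav1-null libraries, against 15713, 14211, 13671 and 14057 in the wild-type libraries. Sav1-null replicate 4 was again lowest, and the other Sav1-null libraries lay close together. The log2 fold change of Dab2 was -1.20 ± 0.19 (limma adjusted p = 0.000325), with means of 6427 ± 1620 in Sav1-null and 14413 ± 896 in wild-type cortex.

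The endosomal pair behaved differently from each other. Clcn5 had values of 575, 400, 490 and 366 in the Sav1-null libraries, against 992, 880, 814 and 775 in the wild-type libraries, with a log2 fold change of -0.93 ± 0.15 (limma adjusted p = 0.000381). Its means were 458 ± 93.9 in Sav1-null and 866 ± 94.9 in wild-type cortex. Ocrl had values of 617, 640, 641 and 620 in the Sav1-null libraries, against 526, 568, 514 and 556 in the wild-type libraries. The gap between its groups, from 568 to 617, was narrow, but both groups were tight, with means of 629 ± 12.8 in Sav1-null and 541 ± 25.2 in wild-type cortex. The log2 fold change of Ocrl was 0.22 ± 0.07 (limma adjusted p = 0.0205), which differs by -0.01 from the median of all tested genes. That call was lost without Sav1-null replicate 2 (0.21, limma adjusted p = 0.0559), Sav1-null replicate 3 (0.21, limma adjusted p = 0.0520), wild-type replicate 1 (0.21, limma adjusted p = 0.0563) or wild-type replicate 3 (0.20, limma adjusted p = 0.0571).

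**Figure D1:**
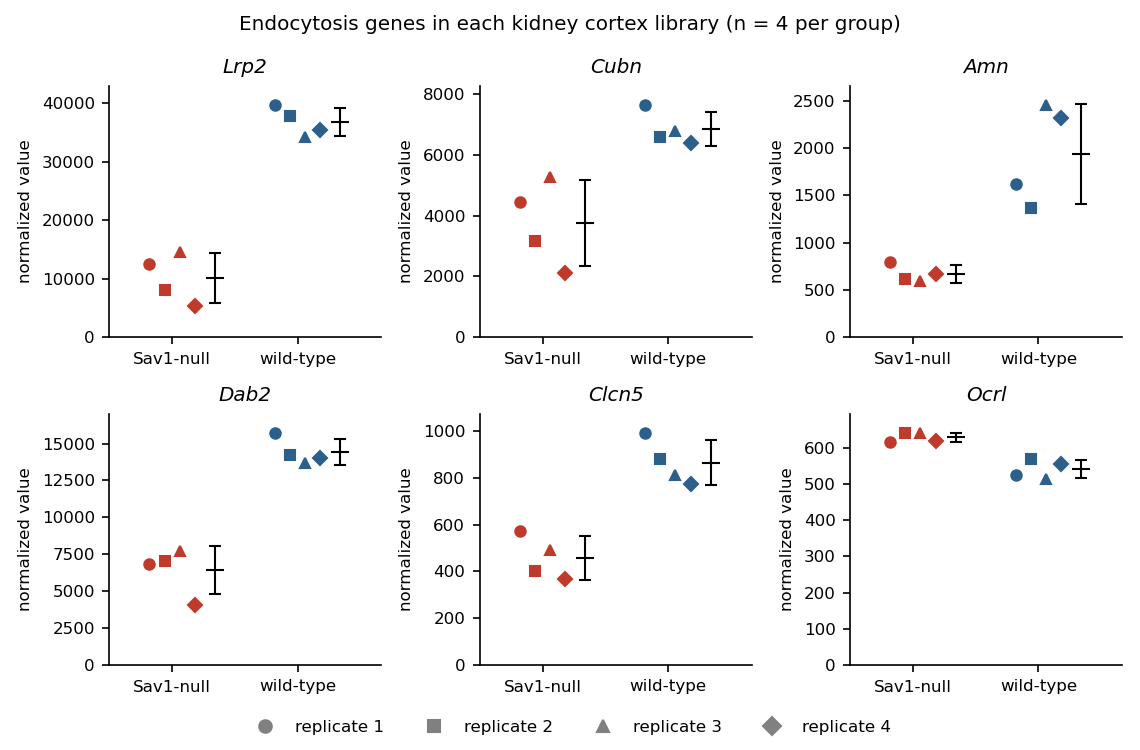
Normalized value (vertical axis, starting at 0) of the 6 endocytosis genes in each library, Sav1-null in red and wild-type in blue, with the mean and SD (n = 4) beside the points. Lrp2, Cubn, Amn, Dab2 and Clcn5 lie lower in every Sav1-null library than in any wild-type library, and Ocrl lies slightly higher.

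The direction of 5 members did not depend on how the libraries were scaled to each other, but that of Ocrl did. Median-of-ratios scaling, which sets the typical gene equal, moved the median of all tested genes by -0.23 and gave log2 fold changes of -2.19 for Lrp2, -1.17 for Cubn and -0.01 for Ocrl (limma adjusted p = 0.954 for Ocrl). Quantile normalization gave -1.52 for Amn, -1.15 for Lrp2, -1.12 for Clcn5, -0.57 for Dab2 and -0.52 for Cubn, so that Amn fell most. Cubn was then no longer called (limma adjusted p = 0.114), and Ocrl stood at 0.04 (limma adjusted p = 0.629). With equal library totals, which moved the median by 0.39, the log2 fold changes were -0.56 for Cubn, -0.55 for Clcn5 and 0.60 for Ocrl. Relative to the median of all tested genes under the same scaling, Ocrl stood at -0.01 as deposited, -0.01 with median-of-ratios, 0.07 with quantile normalization and -0.01 with equal totals. The share of calls that were higher also moved, at 63.5% as deposited, 49.7% with median-of-ratios, 48.3% with quantile normalization and 81.8% with equal totals. Without Sav1-null replicate 4, the shallowest library, Lrp2 changed by -1.69, Cubn by -0.70, Dab2 by -0.999, Clcn5 by -0.83 and Amn by -1.51, and each was called. Without the wild-type libraries high in Havcr1 (replicates 2 and 3), the same 5 genes were called, with log2 fold changes between -1.995 for Lrp2 and -0.96 for Clcn5, and Ocrl was not called (0.22, limma adjusted p = 0.0883).

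**Figure D2:**
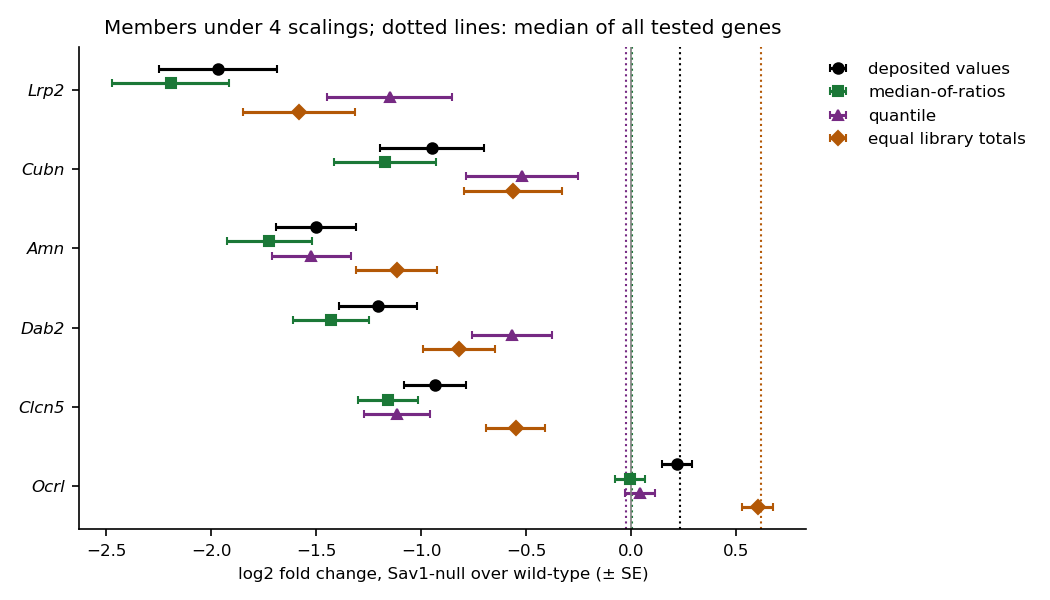
Log2 fold change of Sav1-null over wild-type with its SE (horizontal axis) for the 6 genes as deposited and under median-of-ratios, quantile and equal-total scaling; each dotted line is the median of all tested genes under the scaling of its colour. Lrp2, Cubn, Amn, Dab2 and Clcn5 lie left of 0 under each scaling, and Ocrl lies between -0.01 and 0.60, close to each median.

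Ratios of 2 genes within a library do not change when all its values are multiplied by the same factor. Quantile normalization can change them. Under it the log2 fold changes of Lrp2 (-1.15) and Clcn5 (-1.12) were nearly equal, while that of Cubn was -0.52. The ratios were not tested under it. On the deposited values 10 ratios were tested by two-sided exact permutation, adjusted over the 10, of which 9 are given here. The receptors did not fall in step. Cubn stood at 0.357, 0.390, 0.363 and 0.401 of the Lrp2 value in the Sav1-null libraries, against 0.193, 0.174, 0.198 and 0.181 in the wild-type libraries. These values were even within each group, although the levels of both genes varied over 2.5-fold among Sav1-null libraries. The mean ratio was 0.378 ± 0.0211 in Sav1-null and 0.186 ± 0.0110 in wild-type cortex, a log2 difference of 1.02 ± 0.06 (SE; exact p = 0.0286, adjusted p = 0.0408). Dab2 relative to Lrp2 averaged 0.680 ± 0.168 in Sav1-null and 0.392 ± 0.0107 in wild-type libraries (log2 difference 0.76 ± 0.18; exact permutation p = 0.0286, adjusted p = 0.0408). Clcn5 relative to Lrp2 differed by 1.03 ± 0.22 and Ocrl relative to Lrp2 by 2.19 ± 0.33 on the log2 scale, with the same exact p and adjusted p. Each of these ratios was higher in 4 of 4 Sav1-null libraries than in any wild-type library. For Ocrl to Lrp2 this was fixed beforehand, since Ocrl was higher and Lrp2 lower in every Sav1-null library. The p of that ratio therefore adds nothing, and such ratios among the 10 lower the adjusted p of the others. The adjusted p of Cubn, Dab2 and Clcn5 relative to Lrp2 lay under 0.05 only because such ratios with Ocrl were counted in the adjustment.

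For 2 pairs of partners no difference in ratio was detectable. Amn relative to Cubn averaged 0.201 ± 0.0868 in Sav1-null and 0.285 ± 0.0878 in wild-type libraries, and the groups overlapped (log2 difference -0.55 ± 0.39; exact permutation p = 0.143, adjusted p = 0.179). Without Sav1-null replicate 3 that difference was -0.30. Dab2 relative to Cubn averaged 1.79 ± 0.358 in Sav1-null and 2.11 ± 0.0882 in wild-type libraries, again with overlap (log2 difference -0.26 ± 0.15; exact permutation p = 0.171, adjusted p = 0.190). Without Sav1-null replicate 2 the Dab2 to Cubn difference was -0.37, with an adjusted p of 0.0357 (exact permutation).

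The endosomal members and their relatives were compared in the same way. Clcn5 relative to Ocrl averaged 0.728 ± 0.155 in Sav1-null and 1.60 ± 0.205 in wild-type libraries, and was lower in 4 of 4 Sav1-null libraries than in any wild-type library (log2 difference -1.15 ± 0.17; exact permutation p = 0.0286, adjusted p = 0.0408). Inpp5b encodes the phosphatase most closely related to OCRL, with an overlapping activity. It had values of 1134, 1061, 1302 and 825 in the Sav1-null libraries, against 2570, 2740, 2464 and 2669 in the wild-type libraries, and fell by 1.29 on the log2 scale (limma adjusted p = 2.14e-05). Its ratio to Ocrl was 1.71 ± 0.298 in Sav1-null and 4.83 ± 0.0412 in wild-type cortex (log2 difference -1.51 ± 0.13; exact permutation p = 0.0286, adjusted p = 0.0408). Ocrl was higher and both Clcn5 and Inpp5b were lower in every Sav1-null library. Their ratios to Ocrl therefore had to separate, and the p of these ratios adds nothing. Clcn3, which encodes a related endosomal chloride-proton exchanger, averaged 2428 ± 531 in Sav1-null and 4557 ± 307 in wild-type cortex. Its ratio to Clcn5 was 5.33 ± 0.884 in Sav1-null and 5.29 ± 0.363 in wild-type libraries (log2 difference -0.00 ± 0.13; exact permutation p = 1).

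Leaving out wild-type replicate 2 took the adjusted p of each of the 6 called ratios given here to between 0.0571 and 0.0816 (exact permutation of 3 libraries against 4), with log2 differences between 0.74 and 2.20 in size. The Clcn5 to Lrp2 ratio also missed the threshold without wild-type replicate 1, 3 or 4 (adjusted p = 0.0816 each by exact permutation, log2 differences of 1.06, 1.04 and 1.0).

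**Figure D3:**
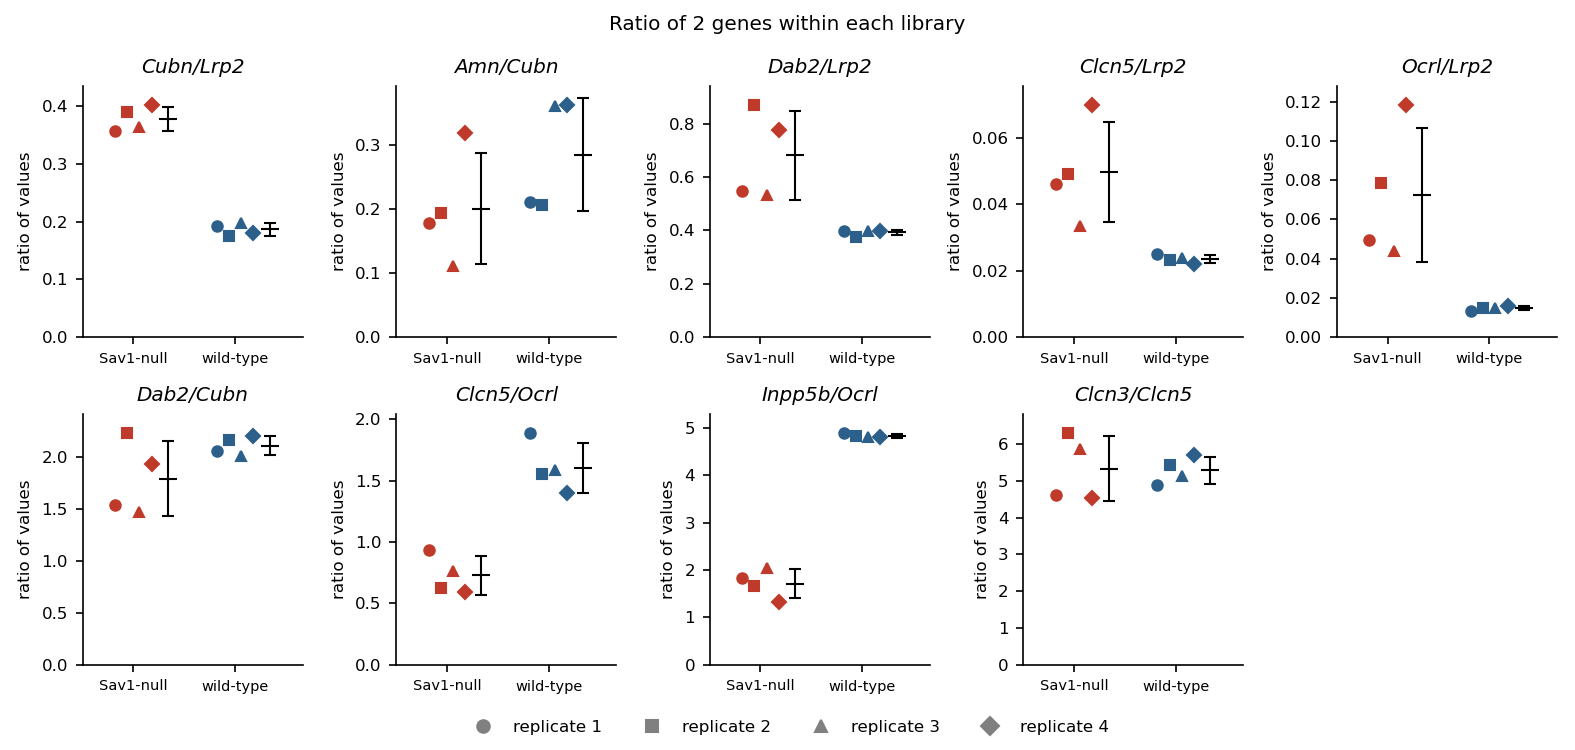
Ratio of the normalized values of 2 genes in each library (vertical axis, starting at 0, no unit), Sav1-null in red and wild-type in blue, with mean and SD (n = 4). The groups do not overlap for 6 of the 9 ratios and overlap for Amn/Cubn, Dab2/Cubn and Clcn3/Clcn5.

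Levels of different genes were compared per kilobase of coding sequence. In both groups the order was Dab2, Lrp2, Amn and Cubn from high to low. Dab2 stood at 2797 ± 705 per kilobase in Sav1-null and 6272 ± 390 in wild-type cortex, and Lrp2 at 723 ± 301 in Sav1-null and 2631 ± 172 in wild-type cortex. In Sav1-null cortex Lrp2 (376 to 1044), Amn (430 to 581) and Cubn (194 to 487) overlapped in range, so their order there is not beyond their spread, and the range of Cubn also overlapped those of Clcn5 and Ocrl. In wild-type cortex each of these neighbours was apart from the next. The lowest places were exchanged. Per kilobase of coding sequence Ocrl (233 ± 4.74) was above Clcn5 (187 ± 38.4) in Sav1-null cortex, with overlapping ranges, and Clcn5 (354 ± 38.8) was above Ocrl (200 ± 9.33) in wild-type cortex. Divided by the longest transcript in place of the coding sequence, Clcn5 and Ocrl both stood at 103 in wild-type cortex, so their order there rests on the length used. On that length Dab2 stayed highest by mean in both groups, at 1378 in Sav1-null and 3091 in wild-type cortex, but its Sav1-null range (873 to 1662) overlapped that of Lrp2 (340 to 944).

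The members were chosen for their part in uptake by the proximal tubule, and markers of that segment fell in the same libraries. Values of whole cortex do not show which cells the RNA of the members came from. Of 18 proximal tubule markers, 16 were called lower and none higher, with a median log2 fold change of -1.73, and their summed value was 71726 to 179237 in Sav1-null and 511778 to 573414 in wild-type libraries. Slc22a6, an organic anion transporter, changed by -2.96, Slc5a2, the apical glucose transporter, by -3.23, Ggt1 by -2.25 and Slc13a3 by -1.89 on the log2 scale. In whole cortex, fewer cells of a type and less RNA per cell cannot be told apart. All 12 markers of injured tubule epithelium were called higher, with summed values of 543019 to 864382 in Sav1-null and 21526 to 43205 in wild-type libraries. Of 10 macrophage markers 9 were tested and all 9 were called higher (summed values 7319 to 10074 in Sav1-null and 1139 to 2005 in wild-type libraries), as were 6 of 7 fibroblast markers (2709 to 8287 in Sav1-null and 1207 to 1951 in wild-type libraries). With median-of-ratios or quantile normalization, 4 of the 7 fibroblast markers were called higher. Quantile normalization left 12 of the 18 proximal tubule markers called lower, with 1 higher. Apart from the Y-linked transcripts, no marker was at 0 in all Sav1-null libraries. The part of these cell types in the fall of the endocytosis genes was not tested.

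Set against the mean log2 value of the 18 markers in the same library, the members did not move as 1 block. That mean was 12.2 ± 0.607 in Sav1-null and 13.9 ± 0.0835 in wild-type libraries, a difference of -1.75. Relative to it Lrp2 stood at 1.03 ± 0.155 in Sav1-null and 1.25 ± 0.133 in wild-type libraries, a difference of -0.22, and 6 of the 18 markers fell further than Lrp2. The other members lay higher relative to the markers in Sav1-null cortex, by 0.25 for Amn, 0.54 for Dab2, 0.80 for Cubn, 0.82 for Clcn5 and 1.97 for Ocrl, and 12, 13, 16, 16 and 17 of the markers fell further than each. Lrp2 and Amn overlapped between groups on this scale and the other 4 did not. No test was run on these differences.

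Among Sav1-null libraries the marker mean was highest in replicate 3, then 1, 2 and 4, the order seen for Lrp2 and Cubn. The SD of log2 Lrp2 among Sav1-null libraries was 0.663 by itself and 0.155 relative to the markers, and that of Cubn was 0.587 by itself and 0.125 relative to them. Dab2 had 0.419 by itself and 0.233 relative to the markers. The other 3 members varied more relative to the markers than by themselves, with SDs of 0.645 against 0.194 for Amn, 0.407 against 0.292 for Clcn5 and 0.595 against 0.0293 for Ocrl. These are descriptions over 4 libraries that share depth and tissue makeup with the markers.

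**Figure D4:**
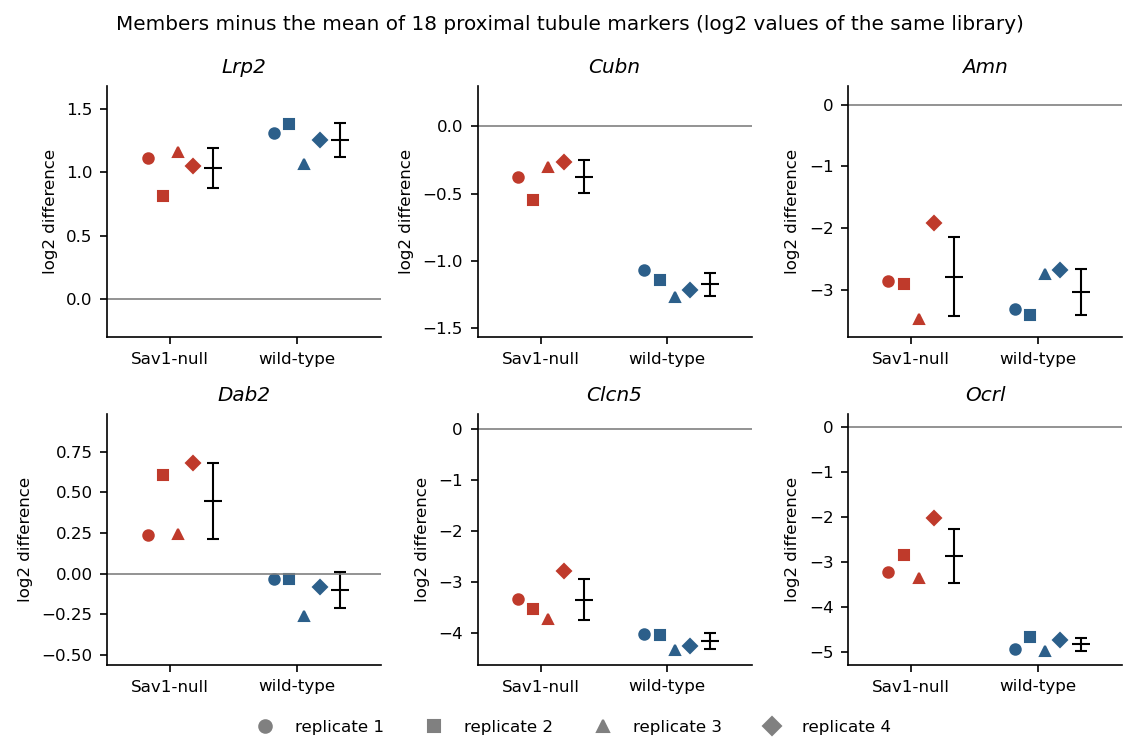
Log2 value of each endocytosis gene minus the mean log2 value of 18 proximal tubule markers in the same library (vertical axis), Sav1-null in red and wild-type in blue, with mean and SD (n = 4). Lrp2 and Amn overlap between the groups, while Cubn, Dab2, Clcn5 and Ocrl lie higher in Sav1-null libraries.

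Genes of the rest of the pathway were counted in 9 lists. Of 133 tested genes, 66 were called lower and 28 higher, beside 25.2% lower and 43.9% higher among all tested genes. In the LDL receptor family and its chaperones, 7 of 14 tested genes were lower and 4 higher, with a median log2 fold change of -0.30. Lrpap1 encodes RAP, the chaperone that keeps megalin from binding ligand during folding. It had values of 5049, 4108, 5057 and 3262 in the Sav1-null libraries, against 13134, 12555, 14027 and 14714 in the wild-type libraries, and every Sav1-null library was far below (log2 fold change -1.66 ± 0.14; limma adjusted p = 1.02e-05). Lrp11 (-0.93), Lrp4 (-0.85) and Vldlr (-0.48) also fell, whereas Lrp1, the large family member known from hepatocytes and macrophages, rose by 1.65 and Sorl1 by 0.80. With equal totals the Vldlr call was lost and the list counted 6 higher and 3 lower.

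Clathrin adaptors and coat proteins showed no common direction, with 6 of 20 higher, 4 lower and a median of 0.03. Hip1, an adaptor that binds clathrin and actin, averaged 478 ± 29.1 in Sav1-null and 127 ± 12.3 in wild-type cortex (log2 fold change 1.91; limma adjusted p = 1.31e-06). Dab1, the relative of Dab2 best known from neurons, averaged 185 ± 35.5 in Sav1-null and 67.4 ± 14.9 in wild-type cortex (1.44; limma adjusted p = 0.000171), so the DAB family moved in both directions. Hip1r rose by 1.25 and Ap2b1, a subunit of the AP-2 adaptor complex, by 1.04. Ap2a2, another AP-2 subunit, changed by -0.50 and the clathrin light chain Cltb by -0.54, and both of these calls were lost with equal totals (that of Ap2a2 also with quantile normalization), when the list counted 12 higher and none lower.

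Endosome sorting and recycling genes were lower in 9 of 21 cases and higher in 4, with a median of -0.36. Rab11fip3, an effector of RAB11 in recycling, averaged 3998 ± 802 in Sav1-null and 11499 ± 374 in wild-type cortex (log2 fold change -1.54; limma adjusted p = 8.28e-06). Snx27, a sorting nexin that returns receptors from endosomes, changed by -1.26, Ehd1 by -0.83 and Rab5c by -0.79. Appl1, which binds OCRL on early endosomes, averaged 982 ± 82.0 in Sav1-null and 562 ± 98.9 in wild-type cortex (0.82; limma adjusted p = 0.000398), and Rab11b rose by 0.44. Counts in this list were 14 lower and 2 higher with median-of-ratios, and 7 lower and 8 higher with equal totals. Among 12 phosphoinositide enzymes 4 were higher and 3 lower, with a median of -0.10. Besides Inpp5b, the myotubularin phosphatase Mtmr2 fell by 0.62 on the log2 scale, while Synj2 (2.26), Pip5k1b (0.87), Pip5k1a (0.66) and Pik3c2a (0.43) rose. The Pik3c2a call was lost when any of Sav1-null replicates 1 to 3 or wild-type replicates 2 to 4 was left out and with median-of-ratios, the Pip5k1b call was lost with quantile normalization, and 7 of the 12 genes were lower with median-of-ratios.

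Genes of endosomal acidification were the most uniform of the machinery lists, with 16 of 22 lower, none higher and a median of -0.67. The proton pump subunits Atp6v1b2 (log2 fold change -1.11), Atp6v0c (-0.86), Atp6v1e1 (-0.77) and Atp6v0d1 (-0.69) led by p. Atp6v1e1 had values of 4490, 4554, 4649 and 4419 in the Sav1-null libraries, against 7840, 7734, 7808 and 7512 in the wild-type libraries, and was even within each group. Counts were 21 lower with median-of-ratios and 11 lower with 3 higher with equal totals, and the Atp6v0c call was lost under quantile normalization. Intercalated cells also carry proton pumps, and 5 of 7 of their markers were called higher and 1 lower, with summed values of 10694 to 15523 in Sav1-null and 7111 to 7791 in wild-type libraries.

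Transcripts of ligands and co-receptors of megalin and cubilin moved in both directions, with 7 of 16 tested genes higher and 6 lower. Of all tested genes, 43.9% were called higher and 25.2% lower, so the share of higher calls was like that of any genes. Ttr, which encodes the thyroxine and retinol carrier transthyretin, had values of 246, 279, 197 and 113 in the Sav1-null libraries, against 10956, 13973, 13307 and 14924 in the wild-type libraries (log2 fold change -6.05; limma adjusted p = 3.74e-07). Apoh, which encodes beta-2-glycoprotein I, read 0, 0, 0.790 and 0.984 in the Sav1-null libraries, against 258, 338, 300.5 and 373 in the wild-type libraries. Gc, which encodes the vitamin D-binding protein, had values of 4871, 3757, 4787 and 3200 in the Sav1-null libraries, against 74.4, 150, 144.5 and 56.7 in the wild-type libraries (5.37; limma adjusted p = 1.38e-06). Every Sav1-null library exceeded every wild-type library over 20-fold. Clu (4.06), Apoe (3.90) and Mt2 (2.32) also rose, and Clu is in addition a marker of injured tubule. These are levels of cortex RNA and do not measure filtered protein.

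In vitamin D metabolism, Cyp27b1, the enzyme that activates vitamin D taken up through megalin, averaged 650 ± 234 in Sav1-null and 104 ± 45.8 in wild-type cortex (log2 fold change 2.65; limma adjusted p = 0.000235). Cyp24a1, the degrading enzyme, averaged 3247 ± 339 in Sav1-null and 1573 ± 457 in wild-type cortex (1.08; limma adjusted p = 0.000463). Of their nuclear receptors, Rxra changed by -1.10 and Vdr by -0.67, and the Vdr call was lost under quantile normalization. Of 9 transcription factors of the proximal tubule, 7 were lower and none higher, with a median of -0.80. Equal totals gave 5 lower and 1 higher, and 5 were lower without wild-type replicates 2 and 3. Hnf4a averaged 8876 ± 2149 in Sav1-null and 20086 ± 638 in wild-type cortex (-1.21; limma adjusted p = 0.000150), and Cux1 changed by -0.85. Genes of other inherited proximal tubulopathies include some of the proximal tubule markers, such as Slc34a1 and Slc5a2. Of this list, 12 of 14 tested genes were lower, with a median of -1.60, led by Ehhadh (-2.16), Slc34a1 (-2.96), Slc5a2 (-3.23) and Gatm (-3.78). The gene called higher was Vps33b (0.25; limma adjusted p = 0.0400), whose call was lost under 12 of 18 alternatives.

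**Figure D5:**
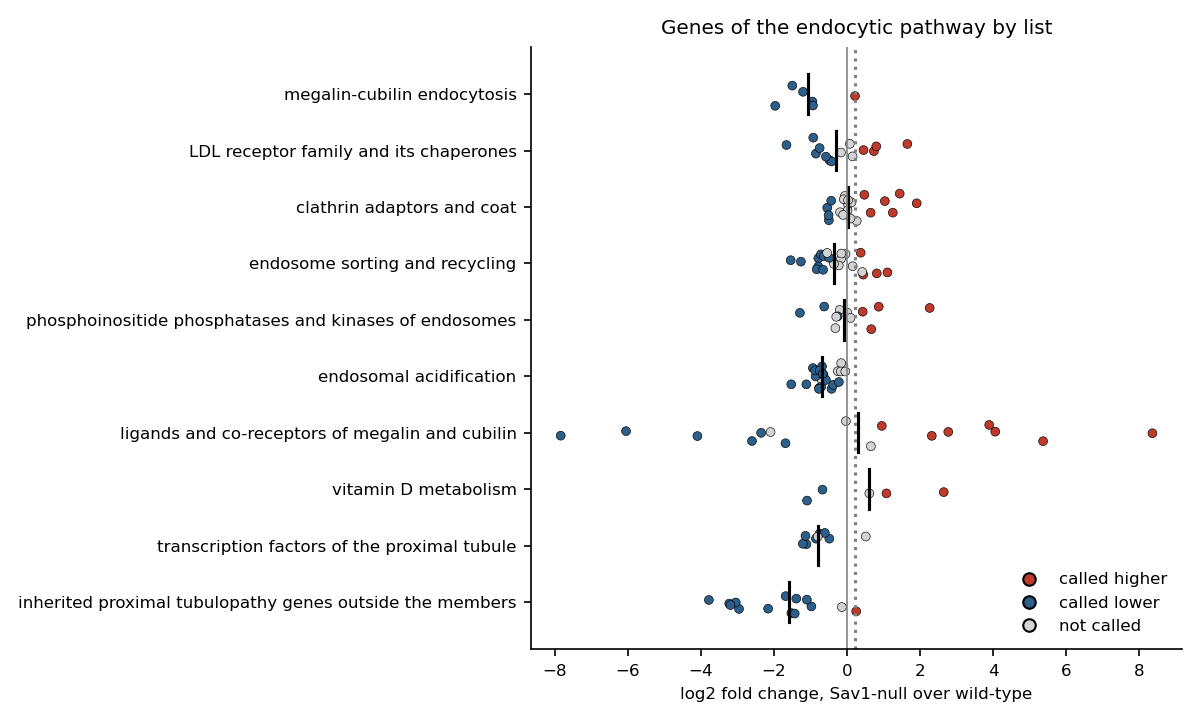
Log2 fold change of Sav1-null over wild-type (horizontal axis) for each tested gene of the 6 members and of 9 pathway lists, coloured by call; the black bar is the median of the list and the dotted line the median of all tested genes, 0.23. Acidification, proximal tubule transcription factor and tubulopathy genes lie mostly to the left, while ligands and co-receptors spread from -7.84 to 8.37.

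Clcn5 and Ocrl are X-linked, and sex-chromosome transcripts separate the groups. Of 447 tested X-linked genes, 51.7% were called higher and 19.0% lower, with a median log2 fold change of 0.46. Of 13137 autosomal genes, 43.7% were called higher and 25.5% lower, with a median of 0.22. Ocrl, at 0.22, lay below the X-linked median, and Clcn5, at -0.93, lay far below it.

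The genes whose profiles over the 8 libraries were most like each member, by the root mean square difference of centred log2 values, were 3 per member, of which 2 are given for Clcn5. For Lrp2 they were Mep1a (0.07), Acadm (0.08) and Cyp2j5 (0.13). Mep1a, which encodes a brush border metalloprotease, averaged 11934 ± 4362 in Sav1-null and 43664 ± 2922 in wild-type cortex, close to the course of Lrp2. Cyp2j5 has close paralogs, among which reads may have been divided. For Cubn they were Slc23a1 (0.09), a vitamin C transporter, Eaf2 (0.11) and Entpd8 (0.11). For Dab2 they were Osgepl1 (0.03), Oxsm (0.07) and Sepsecs (0.07), for Clcn5 Plekha8 (0.07) and the X-linked Mpp1 (0.08), and for Ocrl 1110018G07Rik (0.03), Tm9sf4 (0.04) and Ppp2r2d (0.04). Amn had the loosest neighbours, Rpusd3 (0.13), C030006K11Rik (0.14) and Amdhd2 (0.16). No member was among the nearest 3 of another: the closest pair was Cubn and Dab2, at 0.22, and the farthest was Lrp2 and Ocrl, at 1.17.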

How the data were processed

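RNA of mouse kidney cortex had been sequenced as 8 poly(A) libraries, per the labels' protocols after column extraction and with a stranded mRNA kit. The deposited table holds a normalized signal per gene and library, not counts. RSEM, SAMtools and Picard 1.64 and the build mm9 are named in the submitters' processing notes. For aligner, annotation and strand setting, nothing is given in the sources used here. In each library percentile 75 of the nonzero values lies near 1000, and 92.7% to 93.3% of values below 400 lay within 0.02 of a whole multiple of 1 read, too few for a count model.

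Tested were genes whose mean over the 8 libraries reached 10 (13677 of 21705, 8028 removed, 1 name repeated). Values were transformed to log2(value + 1), which understates changes of low genes, and compared with limma 3.58.1 in R 4.3.3 (intensity trend, 6 residual degrees of freedom), with Benjamini-Hochberg adjustment over the tested genes, and called under 0.05. The fit was tested on simulated data. Ratios were tested by exact permutation over 70 assignments. Lists were described by counts and medians, with no set test. The 6 members, the lists and the tests were chosen with earlier results of these data known. Genes named from each list were up to 4 called genes with the smallest p in the more frequent direction and up to 2 in the other, plus the genes of the ratios, the 3 nearest profiles per member and the check genes Sav1, Havcr1, Xist, Eif2s3y, Ddx3y, Uty and Kdm5d. Coding lengths came from GENCODE M21, and chromosomes were matched for 99.4% of tested names. Promoter windows came from RefSeq (GRCm38.p6). Groups came from the sample titles. Results of some genes and motifs that these rules select are not reported here.

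Alternatives were pseudocounts of 0.5 and 10, no filter, a minimum mean of 100, median-of-ratios, quantile and equal-total scaling, the replicate number as a block, no intensity trend, each library left out, and wild-type replicates 2 and 3 left out. Levels per longest transcript were added after the data were seen.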

Additional observations from a re-analysis of the deposited data

Results flagged for a closer look

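A gap between the highest or lowest library and its nearest neighbour that was large for the range of its group was looked for in 122 groups of 4 libraries (members, ratios and named list genes in each group). It was found in 6, and chance gives about 1 in 20. Dab2 relative to Lrp2 was 0.376 in wild-type replicate 2, below 0.396 in the nearest library, within a tight group. Sav1-null replicate 4 was lowest for Lrp1 (374, nearest 623) and for Pip5k1b (98.4, nearest 109). Wild-type replicate 3 was highest for Apoe (1460, nearest 801). Wild-type replicate 4 was highest for Rxra (4173, nearest 3738). Wild-type replicate 2 was lowest for Slc34a1 (134718, nearest 156361). No member itself had such a library.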

How the results depend on the processing

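Lrp2, Amn, Dab2 and Clcn5 kept their direction and their call under all 18 alternatives, with log2 fold changes from -2.19 to -1.15 for Lrp2, -1.72 to -1.12 for Amn, -1.43 to -0.57 for Dab2 and -1.16 to -0.55 for Clcn5. Cubn kept its direction and lost its call under quantile normalization (-0.52), and the cause was not tested. Ocrl was -0.0051 with median-of-ratios, 0.042 with quantile normalization, 0.22 with the replicate block (limma adjusted p = 0.0517), 0.22 without wild-type replicates 2 and 3, and 0.20 to 0.24 with each library left out. Accordingly 0 members were called higher with median-of-ratios, quantile normalization, the replicate block or without wild-type replicates 2 and 3, and 0 to 1 with each library left out. Equal totals gave 1946 genes called lower, against 3452 as deposited, and 50 pathway-list genes called higher, against 28, since that scaling raises all Sav1-null values. With a minimum mean of 100, 58.0% of calls were higher.

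With each library left out, the log2 ratio differences ranged from 0.99 to 1.05 for Cubn/Lrp2, -0.81 to -0.30 for Amn/Cubn (not called in any), 0.63 to 0.87 for Dab2/Lrp2, 0.85 to 1.20 for Clcn5/Lrp2, 1.91 to 2.39 for Ocrl/Lrp2, -0.37 to -0.17 for Dab2/Cubn, -1.28 to -1.06 for Clcn5/Ocrl, -1.60 to -1.39 for Inpp5b/Ocrl and -0.086 to 0.071 for Clcn3/Clcn5, whose sign turned in 4 of these. Same-numbered libraries of the groups did not deviate together (r = 0.144, 0.0762, -0.169 and 0.135 over genes), so the replicate numbers only name libraries. With the numbers as a block, sign flips of 4 pairs allow no p below 0.125, and no ratio was called (1.02 for Cubn/Lrp2, 0.76 for Dab2/Lrp2, 1.03 for Clcn5/Lrp2, 2.19 for Ocrl/Lrp2, -1.15 for Clcn5/Ocrl and -1.51 for Inpp5b/Ocrl). That test could not pass at this size. The members rest on 372 or more reads in each library, so depth limits low ligands more than the members.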

Other observations

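Of 7 markers of collecting duct principal cells, 6 were called higher in Sav1-null cortex and none lower, with a median log2 fold change of 1.73. Scnn1g, a subunit of the epithelial sodium channel, averaged 4062 ± 721 in Sav1-null and 1205 ± 52.8 in wild-type cortex (limma adjusted p = 3.11e-06), and the vasopressin receptor Avpr2 averaged 1352 ± 461 in Sav1-null and 392.1 ± 20.02 in wild-type cortex (limma adjusted p = 4.57e-05). Of 5 thick ascending limb markers, 2 were called higher and none lower, beside 43.9% higher and 25.2% lower among all tested genes. Their median log2 fold change was 0.24, near the 0.23 of all tested genes. Of 5 distal convoluted tubule markers, 2 were called lower and none higher, among them Pvalb, which averaged 1.32 ± 1.25 in Sav1-null and 654 ± 58.6 in wild-type cortex. Of 7 endothelial markers, 1 was called lower (Kdr) and 6 were not called. Of 5 podocyte markers, 3 were called lower and Synpo higher. All 3 tested lymphocyte markers of 6 were called higher. The 6 together read only 80.6 to 112 in Sav1-null and 30.9 to 39.2 in wild-type libraries. Over the 18 alternatives, 1 to 4 podocyte and 1 to 4 endothelial markers were called lower, and 0 to 3 lymphocyte markers higher.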
